A study of Rattus norvegicus with 19 samples.

Results

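The 2 corticosteroid receptors and 3 genes that glucocorticoids are known to induce were followed in brain RNA of 19 female Wistar rats. The members were the 5 rows of the deposited count table with the Ensembl gene IDs ENSRNOG00000014096 (Nr3c1), ENSRNOG00000034007 (Nr3c2), ENSRNOG00000022523 (Fkbp5), ENSRNOG00000011815 (Sgk1) and ENSRNOG00000007387 (Per1), out of 32883 IDs in the table. The pairing of each ID with its symbol came from the list of members. The RefSeq tables used here hold all 5 symbols once each but list no Ensembl IDs, so the pairing was neither checked nor contradicted, and all 5 IDs were kept. Each animal was the daughter of a father from 1 of 4 groups. There were 5 daughters of ELS-HFD fathers, which had early life stress (ELS, separation from their own mother per the series text) and a high-fat diet (HFD). The fathers of 4 daughters had HFD alone, those of 5 had ELS alone, and those of 5 were controls. The daughters themselves ate chow, went through an elevated plus maze at postnatal day 57 ± 1, and were otherwise left alone. The labels call the material whole tissue lysate of brain and the series text names the amygdala, a region of the forebrain that takes part in fear and anxiety. The series text speaks of male rats where every sample label says female, and the sample labels were used. Neither litter nor individual father is given, so a p-value here reflects only how far these libraries scatter, and some may come from sisters.

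Corticosterone, the main glucocorticoid of the rat, acts in the brain through a pair of nuclear receptors. The mineralocorticoid receptor, encoded by Nr3c2, binds it with high affinity and is largely occupied at resting hormone levels. The glucocorticoid receptor, encoded by Nr3c1, binds it with lower affinity and is engaged when the hormone rises at the daily peak or under stress. The activated receptors bind DNA as transcription factors and induce genes such as Fkbp5, Sgk1 and Per1, and the balance between both receptors is a common measure in work on early life stress.

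The promoter windows of Nr3c1, Fkbp5 and Per1 are shown to set the receptor gene beside a target gene with a CpG-rich window and another with a CpG-poor window. Which annotated starts are used in this tissue was not tested. The sequences are RefSeq windows of build GRCr8, from 250 bases before to 50 bases after an annotated start, written 5′ to 3′ on the strand of the gene, with each CpG dinucleotide in capitals. CpG dinucleotides are where most DNA methylation occurs in mammals. Methylation was not measured in these libraries.
Nr3c1, chr18:31614170-31614469, minus strand: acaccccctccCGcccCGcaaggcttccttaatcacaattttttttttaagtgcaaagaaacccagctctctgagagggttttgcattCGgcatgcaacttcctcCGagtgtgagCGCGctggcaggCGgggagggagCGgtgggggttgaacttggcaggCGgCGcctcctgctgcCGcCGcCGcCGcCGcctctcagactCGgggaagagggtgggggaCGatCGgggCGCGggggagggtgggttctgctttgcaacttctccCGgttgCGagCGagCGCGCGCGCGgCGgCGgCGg
Nr3c1, chr18:31613390-31613689, minus strand: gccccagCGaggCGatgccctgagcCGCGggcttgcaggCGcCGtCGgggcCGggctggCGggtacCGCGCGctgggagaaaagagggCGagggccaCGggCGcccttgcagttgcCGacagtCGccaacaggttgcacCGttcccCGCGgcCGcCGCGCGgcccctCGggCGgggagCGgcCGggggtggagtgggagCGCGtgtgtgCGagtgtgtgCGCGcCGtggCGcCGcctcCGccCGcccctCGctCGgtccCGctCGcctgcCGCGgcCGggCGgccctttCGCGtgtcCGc
Fkbp5, chr20:6543506-6543805, minus strand: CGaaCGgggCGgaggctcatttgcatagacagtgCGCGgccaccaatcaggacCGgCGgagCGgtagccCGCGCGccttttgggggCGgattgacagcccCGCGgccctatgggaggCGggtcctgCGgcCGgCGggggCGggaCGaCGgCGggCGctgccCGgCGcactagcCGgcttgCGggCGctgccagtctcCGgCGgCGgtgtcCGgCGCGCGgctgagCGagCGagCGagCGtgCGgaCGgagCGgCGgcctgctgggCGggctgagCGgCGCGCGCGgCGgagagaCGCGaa
Per1, chr10:54304126-54304425, plus strand: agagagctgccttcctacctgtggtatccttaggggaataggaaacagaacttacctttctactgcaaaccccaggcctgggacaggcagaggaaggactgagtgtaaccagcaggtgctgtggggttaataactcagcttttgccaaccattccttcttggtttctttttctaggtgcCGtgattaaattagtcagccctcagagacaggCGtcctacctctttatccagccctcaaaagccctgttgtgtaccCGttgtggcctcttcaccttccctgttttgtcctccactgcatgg
The windows of Nr3c1 held 31 and 49 CpG dinucleotides, and 9.31% and 0.866% of the 33469 promoter windows in the RefSeq table held at least as many. The Fkbp5 window held 52, a number reached by 0.493% of all windows, and the Per1 window held 3, where the median window held 7. The 3 windows of Sgk1 held 3, 13 and 23. The core of the glucocorticoid response element, AGAACA on either strand, was in 0 of the 7 windows of the 4 genes with an entry, and in 20.7% of all windows. The full element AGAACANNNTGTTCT, which contains that core on both strands, was also in 0 of the 7, and in 0.0149% of all windows. The motif GCGGGGGCG of the transcription factor Egr1 was in 1 of the 7, that of Fkbp5, and in 2.73% of all windows, searched on both strands. These matches describe the letters in a short window and say nothing of binding elsewhere in the gene.

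Counts are given as CPM, in which each count is scaled by the column total of its library. Library totals ran from 7034837 to 20266594 counts, and the members' counts ran from 49 to 1647 per library. The deposited values are counts of reads, so levels are compared between libraries for 1 gene and never between genes, whose lengths differ. In bulk tissue, fewer cells that express a gene and less RNA of it per cell cannot be told apart. Libraries HFD replicate 1, ELS-HFD replicate 2 and ELS-HFD replicate 3 stood apart from the rest on the first principal component of all tested IDs (113.69, 49.23 and 47.82, against -29.02 to 10.59 in the other 16 libraries). Their 10 most abundant IDs took 25.8%, 14.8% and 16.7% of the counts, against 8.997% to 13.9% in the others. The group differences they bear on most are also given without these 3 libraries. The scaling factor of edgeR's TMM method, which adjusts for libraries dominated by a few IDs, was 0.772 in HFD replicate 1 and 0.984 to 1.07 in the others, so its TMM values are given with each gene.

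In edgeR's quasi-likelihood test over 15372 IDs, none of the 5 members was called in any of the 8 comparisons at an adjusted p under 0.05, and the test called 0 IDs in each of them, a background of 0%. At an unadjusted p under 0.05, 1 of the 5 members was found in HFD against control (Per1, background 7.79% of IDs), 1 in ELS against control (Nr3c1, background 4.35%) and 1 in ELS-HFD against ELS (Nr3c1, background 19.8%). The same holds for 1 member in the interaction of both exposures (Nr3c1, background 5.13%) and for 1 in paternal HFD averaged over early life (Per1, background 24.3%). No member was found at that level in ELS-HFD against control (background 4.18%), in ELS-HFD against HFD (background 3.38%) or in paternal ELS averaged over diets (background 2.49%). DESeq2 and limma-voom also called 0 of the 5 in each comparison. Over all IDs limma-voom called 0 in each, and DESeq2 called 151 in ELS-HFD against ELS, 306 for paternal HFD averaged over early life and 0 to 5 in the other comparisons. The median log2 fold change of the 5 members was -0.16 in HFD against control, -0.11 in ELS against control and -0.16 in ELS-HFD against control, where the medians over all tested IDs were 0.0061, -0.0022 and 0.00077. In each of these, 4 of the 5 members were below 0, where 50.8%, 49.6% and 50.2% of all tested IDs were above 0. The member above 0 was Nr3c1 in HFD against control and in ELS against control. In ELS-HFD against control it was Sgk1, and Nr3c1 was at -0.0059. The 3 comparisons share the control libraries.

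**Figure D1:**
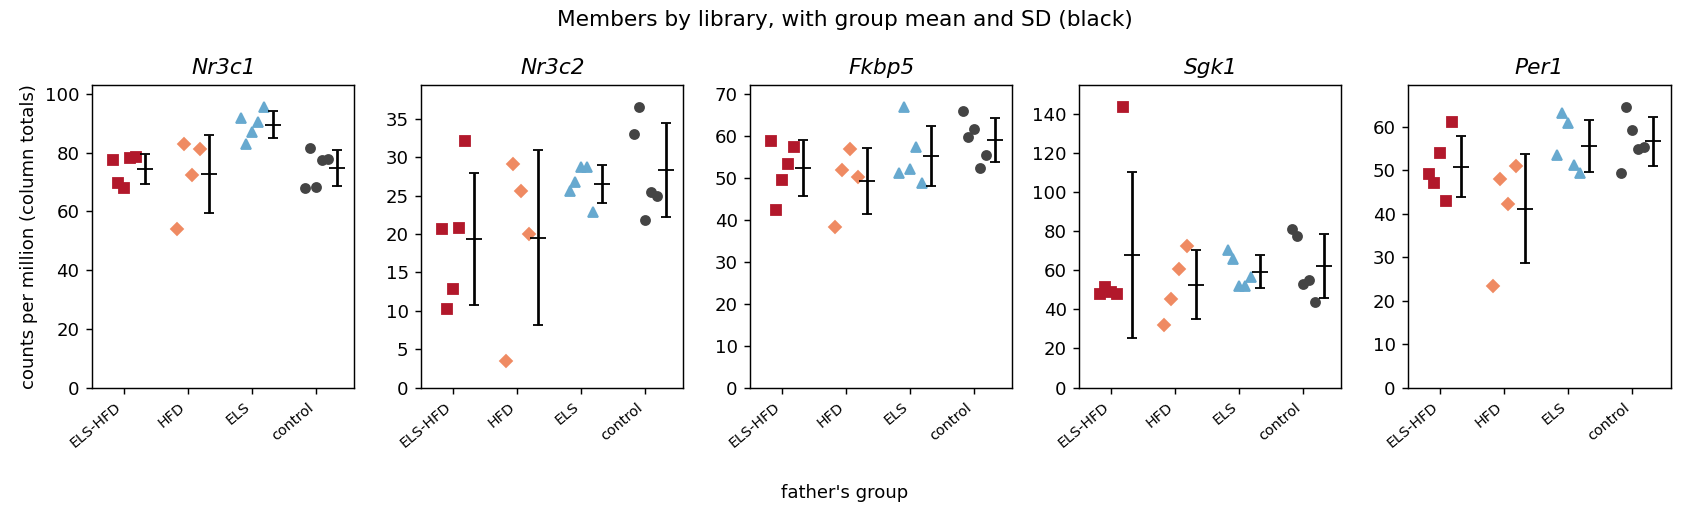
CPM from column totals for the 5 members, 1 point per library, with the ELS-HFD, HFD, ELS and control groups from left to right in each panel. Black bars give the group mean and SD (n = 5, 4, 5 and 5). The 5 ELS libraries of Nr3c1 lie between 83.1 and 95.5, above the 5 ELS-HFD and the 5 control libraries, and Sgk1 has 1 ELS-HFD library at 144.

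Nr3c1 was higher in all 5 daughters of ELS fathers than in any daughter of ELS-HFD or control fathers, a difference that did not pass the adjustment over all IDs. It was at 77.7, 69.7, 68.1, 78.2 and 78.5 CPM in ELS-HFD replicates 1 to 5, and at 54.0, 83.1, 72.3 and 81.3 CPM in HFD replicates 1 to 4. It was at 91.9, 83.1, 87.1, 90.4 and 95.5 CPM in ELS replicates 1 to 5, against 67.9, 81.5, 68.4, 77.7 and 78.0 CPM in control replicates 1 to 5. The ELS libraries did not overlap with the ELS-HFD or control libraries by CPM or TMM. By CPM the HFD libraries were also below all ELS libraries, but narrowly, at 83.07 in HFD replicate 2 against 83.11 in ELS replicate 2. The share of IDs separated between HFD and ELS was not computed. By TMM the highest HFD library (84.2) lay above the lowest ELS library (82.4). The ELS-HFD, HFD and control libraries lay among each other. Between ELS and control, 3.3% of the tested IDs were likewise separated, and between ELS-HFD and ELS 7.03% were, so such a separation was not rare in these data. In HFD against control, ELS-HFD against control and ELS-HFD against HFD none of the 5 members was separated. The shares of IDs separated there were 2.69%, 1.18% and 0.722%.

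The group means of Nr3c1 were 74.4 ± 5.10 CPM (SD, n = 5) in ELS-HFD, 72.7 ± 13.3 (SD, n = 4) in HFD, 89.6 ± 4.72 (SD, n = 5) in ELS and 74.7 ± 6.17 (SD, n = 5) in control libraries. The means of HFD, ELS-HFD and control libraries differed by less than the SD of any of them. HFD replicate 1 widened the HFD group, at 54.0 CPM from the column total but 69.9 CPM by TMM. Against control, ELS libraries were 1.17-fold higher (95% interval 1.04 to 1.31), a log2 fold change of 0.22 ± 0.08 (SE), with an edgeR p of 0.0104 and an adjusted p of 0.913. ELS-HFD libraries were at 0.854 of the level in ELS libraries (95% interval 0.763 to 0.957), a log2 fold change of -0.23 ± 0.08 (SE), with an edgeR p of 0.00894 and an adjusted p of 0.22. Neither passed the adjustment over all IDs. The second comparison was called when HFD replicate 1, which belongs to neither group but shares the estimate of the spread, was left out (log2 fold change -0.21, edgeR adjusted p = 0.0457). In that fit 2405 of 15547 IDs, or 15.5%, were called. Over all alternatives its edgeR, limma-voom or DESeq2 adjusted p ran from 0.0457 to 0.417, and without the 3 libraries that stood apart it was 0.251 at a log2 fold change of -0.17. For ELS against control the adjusted p ran from 0.187 to 0.995.

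ELS-HFD libraries did not differ from control in Nr3c1 beyond the spread (log2 fold change -0.01 ± 0.08 SE, 95% interval of the fold 0.889 to 1.12), nor did HFD libraries (0.06 ± 0.08 SE, 0.921 to 1.17). The interaction compares the paternal diet difference with and without paternal ELS. For Nr3c1 the diet difference was 0.06 without and -0.23 with paternal ELS, and the interaction was -0.28 ± 0.11 (SE) on the log2 scale, with an edgeR p of 0.0224 and an adjusted p of 0.969. The p was 0.145 when libraries were scaled by their totals, 0.0628 without HFD replicate 2 and between 0.00849 and 0.0461 under every other alternative run. The first principal component, a measure of the whole library, lay between -16.9 and 49.2 in ELS-HFD libraries and between -18.3 and 113.69 in HFD libraries. It lay between -29.0 and -19.8 in ELS libraries, against -23.6 to 5.42 in control libraries. In control replicates 1 to 5 the component was -15.9, -23.6, -0.035, -13.4 and 5.42. Nr3c1 by TMM was 66.7, 79.5, 69.3, 76.5 and 78.5 CPM in these replicates, in the same order. In HFD replicates 1 to 4 the component was 113.69, -18.3, 0.085 and -10.6, and Nr3c1 was at 69.9, 84.2, 73.5 and 80.2 CPM. ELS-HFD replicates 1 to 5 had components of 10.6, 49.2, 47.8, -16.9 and -2.18, and Nr3c1 at 79.0, 68.6, 69.0, 78.5 and 73.7 CPM. ELS replicates 1 to 5 had components of -29.0, -19.8, -24.6, -27.1 and -25.6, and Nr3c1 at 86.8, 82.4, 86.8, 86.5 and 89.5 CPM. The part of the first principal component in the Nr3c1 result was not tested.

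Nr3c1 was also among the least variable of the tested IDs, which were not matched for abundance. The SD of its log2 TMM-adjusted CPM within groups was 0.10, which is lower than in all but 1.39% of the tested IDs, whose median was 0.31. Counting error alone gave a median SD of 0.044 on the log2 scale.

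**Figure D2:**
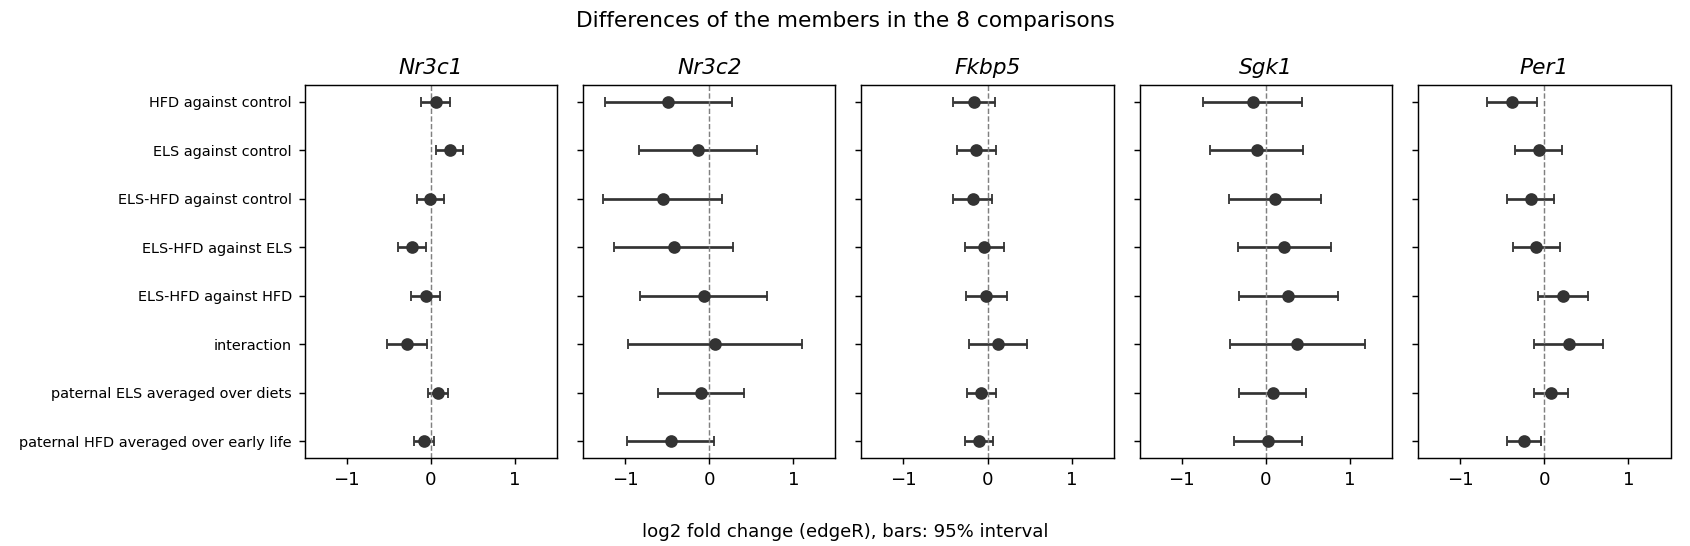
Log2 fold changes of the 5 members in the 8 comparisons from edgeR (points) with 95% intervals (bars), where a positive value means higher in the group named first. The intervals of Nr3c1 in ELS against control, in ELS-HFD against ELS and in the interaction, and of Per1 in HFD against control and in paternal HFD averaged over early life, exclude 0 before adjustment, and those of Nr3c2 and Sgk1 are the widest.

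Nr3c2, the mineralocorticoid receptor, was the most variable member, and its lowest values were those of the 3 libraries that stood apart. It was at 20.6, 10.2, 12.9, 20.8 and 32.2 CPM in ELS-HFD replicates 1 to 5, and at 3.47, 29.1, 25.6 and 20.02 CPM in HFD replicates 1 to 4. It was at 25.6, 26.8, 28.8, 28.7 and 22.9 CPM in ELS replicates 1 to 5, against 33.01, 36.5, 21.9, 25.4 and 24.95 CPM in control replicates 1 to 5. The low value of HFD replicate 1 rested on 49 counts (95% Poisson interval 2.57 to 4.59 CPM, counting error only), and every group overlapped with every other. The range was 10.5-fold over the 19 libraries and 1.83-fold over the 16 without those 3. The means were 19.4 ± 8.57 CPM (SD, n = 5) in ELS-HFD, 19.6 ± 11.4 (SD, n = 4) in HFD, 26.6 ± 2.45 (SD, n = 5) in ELS and 28.4 ± 6.14 (SD, n = 5) in control libraries, and neighbours in this order differed by less than the larger of their SDs.

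With TMM scaling, Nr3c2 was at 4.50 CPM in HFD replicate 1, 10.1 in ELS-HFD replicate 2 and 13.05 in ELS-HFD replicate 3, which is 17.6%, 39.4% and 51.0% of the median of 25.6 in the other 16 libraries. In those libraries 2.35%, 3.08% and 6.14% of the tested IDs were as far or farther below their own median. The other receptor was nearer to its usual level there, with Nr3c1 at 88.2%, 86.5% and 87.1% of its median. Among the targets, Per1 was at 59.9% in HFD replicate 1 but at 92.0% and 108% in the ELS-HFD pair, and Fkbp5 was at 91.1%, 76.5% and 92.2%. Sgk1 was at 76.5%, 93.7% and 91.9%. Nr3c2 was the lowest member relative to its median in each of the 3 libraries, and lowest where the first principal component was highest.

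**Figure D3:**
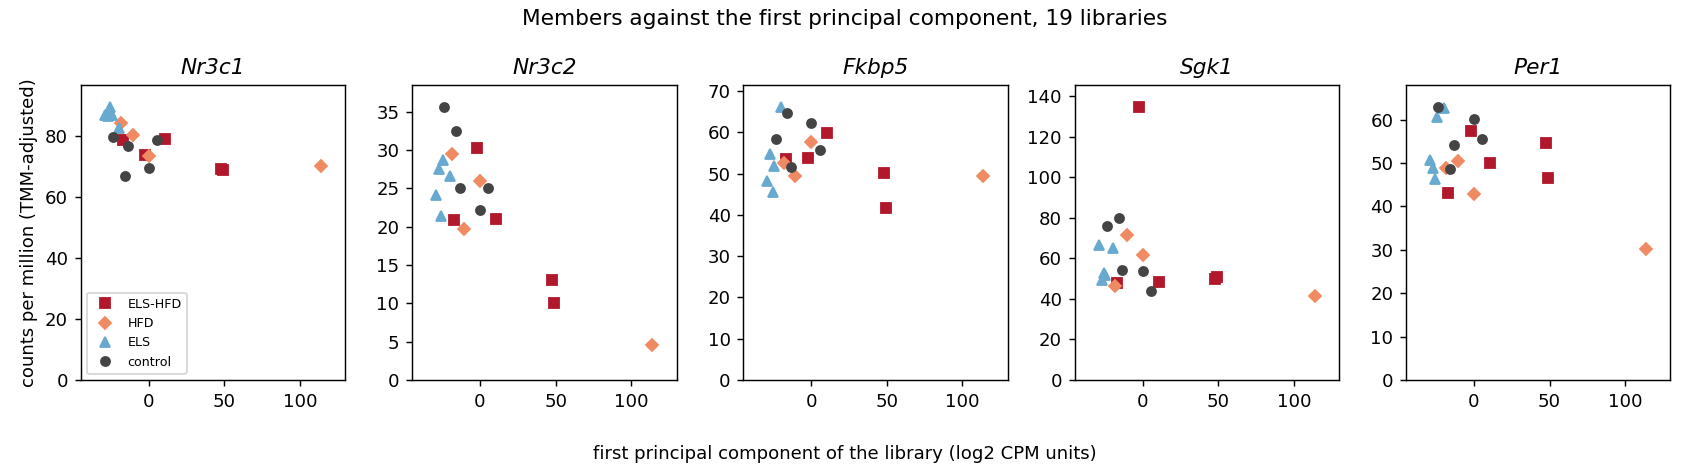
TMM-adjusted CPM of the 5 members (vertical axes) against the first principal component of each library (horizontal axes, log2 CPM units), 1 point per library and 1 colour and shape per group. Nr3c2 is lowest in the 3 libraries at the right, at 4.50 to 13.05, whereas Nr3c1 stays between 68.6 and 69.9 in them.

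The difference of Nr3c2 between groups depended on those 3 libraries, all from daughters of fathers with HFD, alone or with ELS. Leaving them out takes the lowest Nr3c2 values from these groups and no library from the ELS or control groups. ELS-HFD libraries were at 0.681 of the control level (95% interval 0.417 to 1.11), a log2 fold change of -0.55 ± 0.34 (SE) with an edgeR adjusted p of 0.839, and at -0.23 without the 3 libraries. HFD against control was -0.49 ± 0.36 (SE), with an adjusted p of 0.69 in edgeR, and -0.16 without them or without HFD replicate 1 alone. It was -0.74 without HFD replicate 2 and -0.72 by limma-voom. Averaged over early life, paternal HFD went with -0.46 ± 0.25 (SE), an edgeR adjusted p of 0.25, and with -0.13 without the 3 libraries and -0.28 without HFD replicate 1. ELS against control was -0.13 ± 0.34 (SE), with a 95% interval of the fold from 0.562 to 1.49. What set these 3 libraries apart was not tested. Over all 19 libraries 695 of 11507 IDs with a mean of at least 5 CPM followed Nr3c2 with a Pearson r over 0.9 (the 3 highest were 0.97, 0.97 and 0.96), and over the 16 other libraries 0 IDs did, with a highest r of 0.82.

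The ratio of Nr3c2 to Nr3c1 within a library does not depend on its depth or scaling. Per 100 Nr3c1 counts there were 26.6, 14.7, 18.9, 26.6 and 41.0 Nr3c2 counts in ELS-HFD replicates 1 to 5 and 6.44, 35.0, 35.4 and 24.6 in HFD replicates 1 to 4. There were 27.9, 32.3, 33.04, 31.8 and 23.98 in ELS replicates 1 to 5, against 48.6, 44.8, 31.9, 32.8 and 32.0 in control replicates 1 to 5. The control libraries held the 2 highest values and none below 31.9, but all groups overlapped. The means were 25.6 ± 10.04 (SD, n = 5) in ELS-HFD, 25.4 ± 13.6 (SD, n = 4) in HFD, 29.8 ± 3.81 (SD, n = 5) in ELS and 38.0 ± 8.06 (SD, n = 5) in control libraries. Without the 3 libraries that stood apart the ELS-HFD mean was 31.4 ± 8.31 (SD, n = 3) and the HFD mean 31.7 ± 6.14 (SD, n = 3). Control replicates 3, 4 and 5 lay at 31.9 to 32.8, so the higher control mean came from replicates 1 and 2. No test of the ratio was run.

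**Figure D4:**
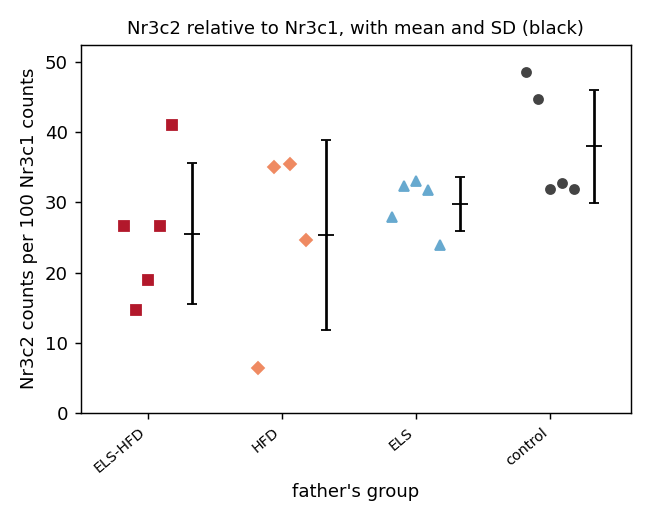
Nr3c2 counts per 100 Nr3c1 counts in each library, with the ELS-HFD, HFD, ELS and control groups from left to right and the mean and SD of each group in black (n = 5, 4, 5 and 5). The lowest library is HFD replicate 1 at 6.44 and the 2 highest are control replicates 1 and 2 at 48.6 and 44.8.

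Fkbp5 encodes a co-chaperone that lowers the hormone affinity of the glucocorticoid receptor and is itself induced by that receptor. It was at 58.8, 42.2, 49.4, 53.4 and 57.4 CPM in ELS-HFD replicates 1 to 5, and at 38.2, 51.7, 56.8 and 50.1 CPM in HFD replicates 1 to 4. It was at 51.0, 66.8, 52.0, 57.3 and 48.7 CPM in ELS replicates 1 to 5, against 65.8, 59.8, 61.6, 52.4 and 55.5 CPM in control replicates 1 to 5. The means were 52.2 ± 6.68 CPM (SD, n = 5) in ELS-HFD, 49.2 ± 7.88 (SD, n = 4) in HFD, 55.2 ± 7.20 (SD, n = 5) in ELS and 59.03 ± 5.24 (SD, n = 5) in control libraries. The control mean was the highest, all groups overlapped, and neighbours in the order of the means differed by less than either SD. By TMM, HFD replicate 1 was at 49.5, and the means were 51.8 in ELS-HFD, 52.3 in HFD, 53.3 in ELS and 58.6 in control libraries, so HFD and ELS-HFD changed places. Relative to control, the fold was 0.885 in ELS-HFD (95% interval 0.753 to 1.04), 0.893 in HFD (0.752 to 1.06) and 0.91 in ELS (0.775 to 1.07), with edgeR adjusted p of 0.839, 0.688 and 0.913. For Fkbp5 in ELS-HFD against control, the log2 fold change of -0.18 became -0.071 without the 3 libraries that stood apart. ELS-HFD libraries were at 0.972 of the ELS level (95% interval 0.827 to 1.14).

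Sgk1 encodes a serine/threonine kinase that glucocorticoids and mineralocorticoids induce. A single library carried its largest departure. It was at 47.8, 51.5, 49.0, 47.7 and 143.6 CPM in ELS-HFD replicates 1 to 5, and at 31.9, 45.6, 60.5 and 72.7 CPM in HFD replicates 1 to 4. It was at 70.5, 65.7, 51.9, 51.8 and 56.4 CPM in ELS replicates 1 to 5, against 81.3, 77.8, 53.2, 55.1 and 43.8 CPM in control replicates 1 to 5. ELS-HFD replicate 5 was above all other libraries, and the groups overlapped. The means were 67.9 ± 42.3 CPM (SD, n = 5) in ELS-HFD, 52.7 ± 17.7 (SD, n = 4) in HFD, 59.2 ± 8.43 (SD, n = 5) in ELS and 62.2 ± 16.4 (SD, n = 5) in control libraries, and neighbours in their order differed by less than the larger SD. HFD replicate 1 was at 41.4 CPM by TMM. ELS-HFD against control was 0.11 ± 0.26 (SE) on the log2 scale with that library, with an edgeR adjusted p of 0.936, and -0.32 without it (edgeR adjusted p = 0.722, range over the alternatives 0.722 to 1.00). Against ELS the fold change was 0.22 with the library and -0.22 without it, so the direction rested on this 1 animal. Without the 3 libraries that stood apart, which leaves it among 3 ELS-HFD libraries, Sgk1 was 0.32 against control and 0.43 against ELS. The same library had the highest value of ENSRNOG00000016275, an ID that the tables used here do not name, at 11277 CPM. The other 4 ELS-HFD libraries had 0.753, 855, 821 and 5.08 CPM of it. ELS replicate 5 had 4672 CPM of it and 56.4 CPM of Sgk1. Control replicates 1 and 2 had 4715 and 2409 CPM of it and 81.3 and 77.8 CPM of Sgk1, the next highest Sgk1 values. Control replicates 3, 4 and 5 had 1111, 891 and 319 CPM of it and 53.2, 55.1 and 43.8 CPM of Sgk1. HFD replicates 3 and 4 and ELS replicates 1 and 2 had 1.53, 0.694, 7.24 and 1.74 CPM of the ID. Their Sgk1 was at 60.5, 72.7, 70.5 and 65.7 CPM. HFD replicates 1 and 2 and ELS replicates 3 and 4 had 1.77, 2.55, 0.909 and 1.15 CPM of the ID. Sgk1 was at 31.9, 45.6, 51.9 and 51.8 CPM in them. No stated rule led to the choice of this ID, and its part in the Sgk1 value was not tested.

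Per1 encodes a repressor of the circadian clock and is also induced directly by the glucocorticoid receptor. Its mean was lowest in the daughters of HFD fathers. It was at 49.1, 47.2, 54.0, 42.9 and 61.2 CPM in ELS-HFD replicates 1 to 5, and at 23.3, 48.1, 42.3 and 51.1 CPM in HFD replicates 1 to 4. It was at 53.6, 63.2, 60.8, 51.1 and 49.5 CPM in ELS replicates 1 to 5, against 49.4, 64.5, 59.4, 55.0 and 55.3 CPM in control replicates 1 to 5. Of the 4 HFD libraries, 3 were below all controls by CPM and HFD replicate 4 was above 1 of them. By TMM, HFD replicate 2 (48.8) was also above control replicate 1 (48.5), which left 2 below all controls. The mean was 50.9 ± 7.01 CPM (SD, n = 5) in ELS-HFD libraries and 41.2 ± 12.5 CPM (SD, n = 4) in HFD libraries, while ELS libraries averaged 55.7 ± 6.05 CPM (SD, n = 5) and control libraries 56.7 ± 5.63 CPM (SD, n = 5). Neighbours in the order of these means differed by less than the larger SD. HFD libraries were at 0.766 of the control level (95% interval 0.624 to 0.941), a log2 fold change of -0.38 ± 0.14 (SE), with an edgeR p of 0.0139 and an adjusted p of 0.616. Without HFD replicate 1 it was -0.25, at an edgeR adjusted p of 1.00, and over all alternatives the adjusted p ran from 0.349 to 1.00. That library had 30.2 CPM of Per1 by TMM, still below the 42.9 to 63.0 CPM of the 16 libraries that did not stand apart. Paternal HFD averaged over early life went with a log2 fold change of -0.24 ± 0.10 (SE), with an edgeR p of 0.0231 and an adjusted p of 0.165, and with -0.16 without HFD replicate 1 at an edgeR adjusted p of 0.327. The adjusted p ran from 0.0954 to 0.497 over its alternatives.

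Within the groups the members were compared in pairs, as deviations of log2 (CPM + 1) from the group means over 19 libraries, with permutation within groups and adjustment over the 10 pairs. One pair passed, Nr3c2 with Fkbp5, at r = 0.75 (permutation p = 0.00191, adjusted p = 0.0191) and rho = 0.66 (permutation p = 0.0059, adjusted p = 0.059). It did not pass with TMM scaling (r = 0.44, permutation p = 0.0246, adjusted p = 0.154) or without the 2 libraries farthest in Nr3c2 (r = 0.44, adjusted permutation p = 0.541). Without the 3 libraries that stood apart it was 0.32 (adjusted permutation p = 0.499), so the relation rested on them. Nr3c1 with Nr3c2 had r = 0.80 (adjusted permutation p = 0.0613) over 19 libraries and 0.06 (adjusted permutation p = 0.856) over the 16. Nr3c1 with Fkbp5 had r = 0.33 (adjusted permutation p = 0.321) over 19 and -0.70 over the 16 (permutation p = 0.00756, adjusted p = 0.0756), the only pair of the 10 with an unadjusted p under 0.05 there. Among the 3 targets, r was 0.48 for Fkbp5 with Sgk1, 0.55 for Fkbp5 with Per1 and 0.57 for Sgk1 with Per1 over 19 libraries (adjusted permutation p of 0.113, 0.113 and 0.0613), and 0.24, 0.19 and 0.49 over the 16.

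Likeness to the other IDs was described across libraries, which share their depth and the 3 libraries that stood apart. Over 19 libraries the IDs with the most similar pattern reached a Pearson r of 0.93 with Nr3c1, 0.88 with Fkbp5, 0.87 with Sgk1 and 0.89 with Per1, on log2 (CPM + 1) among 11507 IDs, and no symbol is available for them. Ranked by that r, Nr3c2 was number 35 for Fkbp5, 791 for Sgk1 and 182 for Per1. Nr3c1 was number 5100 for Fkbp5, 5297 for Sgk1 and 3174 for Per1. These ranks were not computed without the 3 libraries that stood apart.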

How the data were processed

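Poly(A)-enriched RNA (about 400 ng per library) was sequenced, per the labels' protocols. The authors deposited whole-number counts per Ensembl gene ID for the 19 libraries, taken as raw read counts from their values, and the submitters' processing notes name build Rnor_6.0 and DESeq2. The aligner, annotation release, strand setting and handling of shared reads are not given in the sources available. Each column was assigned through the library number that its name shares with a sample's description.

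IDs were kept by edgeR's filterByExpr (15372 of 32883, all 5 members among them) and scaled by TMM. The test was edgeR 4.0.16 (R 4.3.3) quasi-likelihood, 1 fit over the 4 groups, with Benjamini-Hochberg adjustment over all IDs. SE is the log2 fold change over the square root of F. Alternatives were DESeq2 1.42.0, limma-voom 3.58.1, other scalings, no filter, pairwise fits, a replicate block and left-out libraries. Permutations numbered 100000.

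All 5 members were named, with no other gene, because IDs have no symbols in the tables used here. Lists of other pathway genes and of cell type markers were not analysed for the same reason, and the labelled tissue was not checked against markers. Members and tests were chosen with earlier results of these data known.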

Additional observations from a re-analysis of the deposited data

Results flagged for a closer look

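Of 24 groups of values (5 members and the Nr3c2 to Nr3c1 ratio in 4 groups), 1 had an extreme library, judged by its gap to the nearest other library relative to the range of the group. Chance gives about 1 in 20. It was Sgk1 in ELS-HFD replicate 5, at 143.6 CPM, where the other 4 ELS-HFD libraries were at 47.7 to 51.5 CPM.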

How the results depend on the processing

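The number of members called was 0 in every comparison and alternative except ELS-HFD against ELS, where leaving out 1 library at a time gave 0 to 1, the 1 being Nr3c1 without HFD replicate 1. Of the 40 log2 fold changes, 25 kept their direction under all alternatives and 15, none of them called, did not. For Nr3c1 the direction turned in HFD against control with library totals (-0.040), in ELS-HFD against HFD with library totals (0.035), and in ELS-HFD against control with DESeq2 (0.0095), RLE size factors (0.0063), the 2 groups alone (0.0083), without the 3 libraries that stood apart (0.058) and from -0.042 to 0.021 when 1 library was left out. For Nr3c2 it turned in ELS-HFD against HFD with limma-voom (0.11), and when 1 library was left out the values ran from -0.38 to 0.19 there, from -0.25 to 0.32 in the interaction and from -0.25 to 0.028 for paternal ELS averaged over diets. For Fkbp5 it turned in ELS-HFD against ELS without the 3 libraries (0.063), with a range from -0.097 to 0.049 when 1 was left out, and in ELS-HFD against HFD with library totals (0.087), the replicate block (0.0080) and without the 3 libraries (0.068), with a range from -0.069 to 0.055. For Sgk1 the ranges when 1 library was left out were -0.21 to 0.0030 (ELS against control), -0.32 to 0.22 (ELS-HFD against control), -0.22 to 0.31 (ELS-HFD against ELS), -0.17 to 0.42 (ELS-HFD against HFD), -0.056 to 0.53 (interaction), -0.14 to 0.15 (paternal ELS) and -0.19 to 0.093 (paternal HFD). Sgk1 also turned with the replicate block for paternal ELS (-0.0069) and with limma-voom (-0.038) and library totals (-0.023) for paternal HFD. The correlation of Nr3c1 with Fkbp5 turned with TMM scaling (-0.080), without the 2 farthest libraries (-0.19) and without the 3 (-0.70), and that of Nr3c1 with Sgk1 with TMM scaling (-0.078) and without the 3 (-0.081). The cause was not tested. The replicate block changed no call, and same-numbered libraries deviated together (r over 0.1) in 9 of 27 pairs. Differently numbered pairs were not summarised beside them, so this count cannot show whether the numbers mark pairing. The main fit did not use the numbers as pairing. Over all IDs, edgeR called 0 in ELS-HFD against ELS, where it called 2405 without HFD replicate 1 and DESeq2 called 151, and for paternal HFD DESeq2 called 306 where edgeR called 0. In the other comparisons alternatives called at most 12. Counts per member and library were 49 to 1647. The median counting error of each member (0.044 to 0.076 on the log2 scale) was below its SD within groups (0.10 to 0.66). In ELS libraries alone, Nr3c1 by TMM had an SD of 2.53 on a mean of 86.4 CPM, which is close to counting error.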
